A study of Mus musculus with 16 samples.

Results

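The genes described here encode the proteins that carry the first steps of signalling from the IgE receptor of mast cells: the kinases Lyn, Syk and Btk, the adaptors Lat, Lat2, Lcp2 and Gab2, and the lipid enzymes Plcg1, Plcg2 and Inpp5d. They were taken as the probe sets whose single annotated gene symbol is one of these 10 names. Of the 45037 probe sets tested, 20 met this rule, and they stood for 9 of the 10 genes. Lyn carried no probe set in the annotation used here and was not analysed here. The RNA came from MC/9, a mouse mast cell line, and from the exosomes it released, which are small vesicles that were filtered and then pelleted by ultracentrifugation from the culture medium. There were 4 groups of 4 arrays each. Exosomes from normal conditions (norm exo) and cells from normal conditions (norm cell) were set against exosomes and cells from cultures given 125 µM H2O2 for 24 h (oxi exo and oxi cell). All groups come from this single line, grown with fetal bovine serum and Rat T-Stim, so that no other mast cell is represented. The sample descriptions call the cells recipients of normal or H2O2 exosomes, while the methods of the study describe RNA of exosomes and their donor cells. Which of these the cell arrays held was not settled by the sources, and "under H2O2" below means the labelled condition. The study describes a pair of norm cell samples and a pair of norm exo samples as coming from different cultures. For the other samples the sources used here do not say so, and p-values measure the spread between these samples, which may in part be technical. A lower signal in a bulk sample cannot tell fewer cells or vesicles that hold an RNA from less of that RNA in each.

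In mast cells, an antigen that cross-links receptor-bound IgE brings receptors together, and the Src-family kinase Lyn phosphorylates their signalling chains. Syk, a kinase that binds the phosphorylated chains, then phosphorylates the membrane adaptor Lat and its relative Lat2, also known as NTAL. Lcp2, the adaptor SLP-76, and the Tec-family kinase Btk join this assembly and help to activate phospholipase C gamma (Plcg1 and Plcg2), which cleaves a membrane lipid to release calcium and activate protein kinase C. Gab2 couples the receptor to phosphoinositide 3-kinase through Fyn, and Inpp5d, the lipid phosphatase SHIP-1, removes the product of that kinase and restrains degranulation.

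The values are signals on a linear scale with no unit, used as deposited, and they are compared here between arrays for 1 probe set at a time. As the background level of an array served the 95th percentile over 205 probe sets for 170 genes, such as odorant receptors and milk proteins, that mast cells are not known to use. It lay between 10.8 and 17.1 on the cell arrays and between 218 and 312 on the exosome arrays. Each gene is given by its probe set of highest mean signal over the cell arrays. On the cell arrays all 9 of these probe sets were above background, and so were 5 of the other 11. The mast cell markers bore out the label of the cells, since 9 of the 9 measured were above background on every cell array. They were so for 6 of 9 in norm exo and for 1 of 9 in oxi exo, and their summed signal was 4207 to 6976 in norm exo and 1643 to 2472 in oxi exo. Of the 9 T lymphocyte markers measured, 1 was above background on all exosome arrays, namely Zap70, the T cell relative of Syk, at 806.5 ± 55.8 in norm exo and 1089 ± 233 in oxi exo (SD, n = 4). The Cd3d, Cd3e and Cd3g markers of that list were below background on all 16 arrays. The summed signal of the list was 1209 to 1576 in norm exo and 1365 to 1886 in oxi exo. In the cells, 0 of its markers were above background on all norm cell arrays and 2 on all oxi cell arrays. These were Cd8a at 17.33 ± 4.54 and Zap70 at 49.77 ± 26.7 in oxi cell. None of the 6 B lymphocyte, 7 macrophage and neutrophil or 2 erythroid markers was above background on all arrays of an exosome group, and in the cells 1, 2 to 3 and 0 of them were. The 3' to 5' signal ratio of Gapdh, a sign of RNA length, was 1.43 to 2.33 on the exosome arrays and 0.82 to 0.88 on the cell arrays. That of actin was 3.812 to 6.55 in norm exo and 2.775 to 4.475 in oxi exo. On the cell arrays it was 1.302 to 1.549. The exosome groups differed in order, with means of 1.64 (norm exo) and 1.885 (oxi exo) for Gapdh and of 5.35 and 3.86 for actin.

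**Figure D1:**
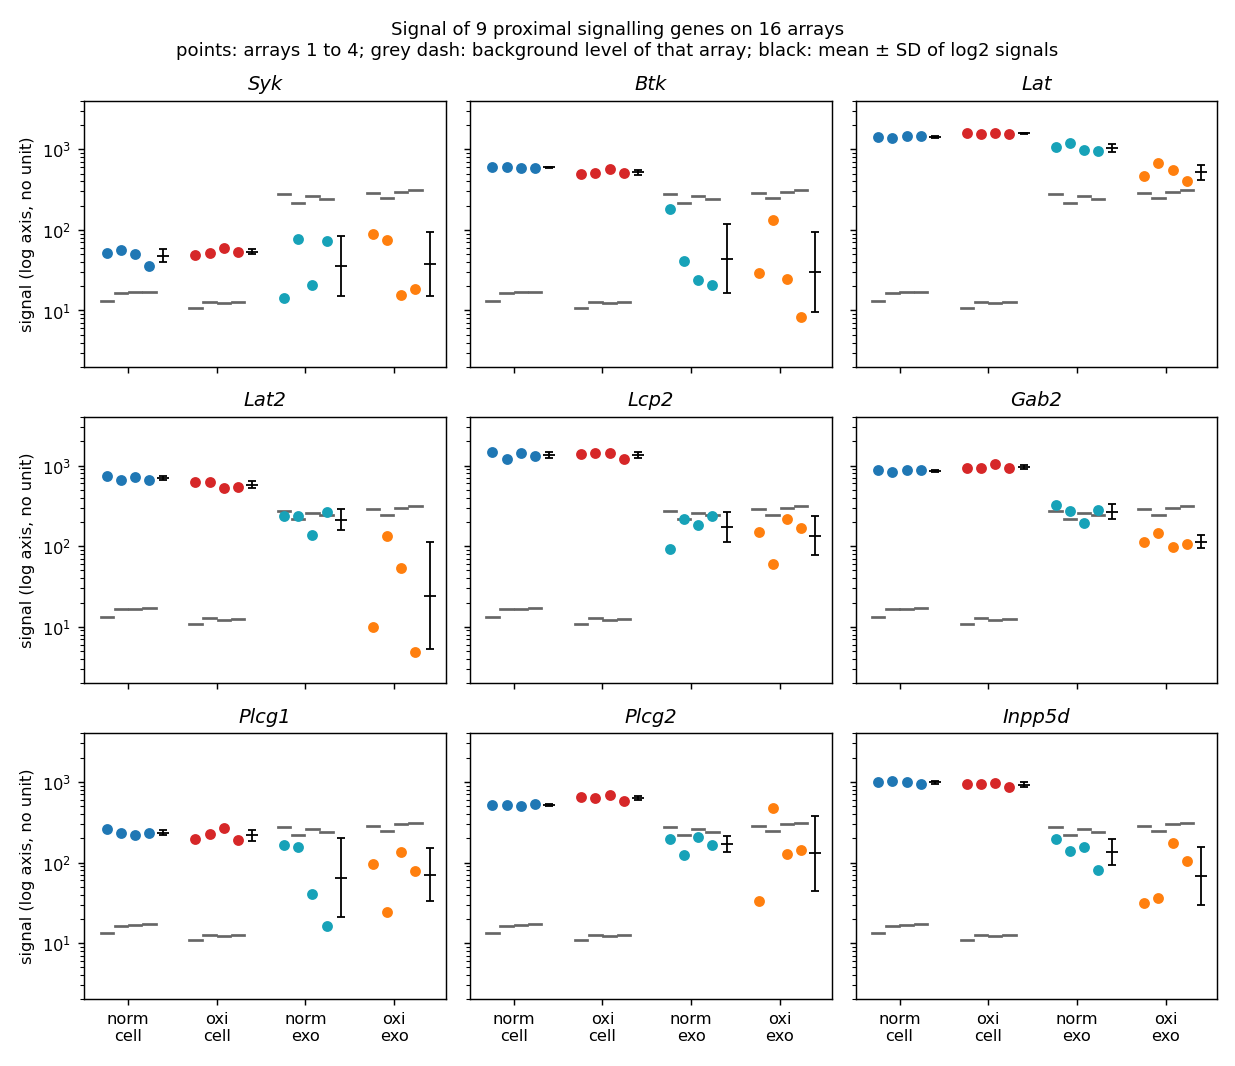
Signal of each of the 9 genes on all 16 arrays, on a log axis without unit, with arrays 1 to 4 of a group side by side, the background level of each array as a grey dash and the mean ± SD of the log2 signals in black. All 9 genes lie above background in both cell groups, and Lat is the one that stays above it on all 8 exosome arrays.

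In the cells, the question was whether the H2O2 condition changed the level of these RNAs. Plcg2 rose and Lat2 fell, and the other 7 genes passed the test in neither direction. Of all probe sets, 4.31% were called higher and 5.51% lower, and of the 19181 probe sets above background on all cell arrays 9.83% were called higher and 12.2% lower. With 1 gene called higher and 1 called lower of 9, the genes were near that background, and their count is no result about them as a group. The median log2 difference was 0.01 over the 9 genes, −0.15 over all probe sets and −0.07 over those above background.

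Among the kinases, the signal of Btk was 605.5, 608.0, 585.8 and 591.2 in norm cell and 490.8, 501.0, 572.3 and 510.8 in oxi cell. All 4 oxi cell values lay under all 4 norm cell values. Their log2 difference was −0.21 ± 0.06 (SE, n = 4 pairs) and did not pass the test (adjusted p = 0.0661). Syk was measured at a few times its background, at 51.04, 55.61, 50.73 and 36.03 in norm cell and 49.34, 52.17, 59.37 and 53.62 in oxi cell. Its groups overlapped, and the log2 difference of 0.16 ± 0.15 had a 95% interval of −0.17 to 0.50. The second Syk probe set above background (1418262_at) gave −0.36 ± 0.17, with an adjusted p of 0.241.

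Among the adaptors, Lat2 had signals of 739.0, 661.8, 717.7 and 658.4 in norm cell. In oxi cell they were 623.2, 634.8, 532.9 and 544.7, so that the groups did not overlap. This was a log2 difference of −0.25 ± 0.07 (adjusted p = 0.0354), lower in 4 of 4 pairs. Its relative Lat had signals of 1422, 1378, 1464 and 1443 in norm cell and 1579, 1564, 1605 and 1549 in oxi cell. These groups did not overlap either, with all oxi cell values the higher. The log2 difference of Lat was 0.14 ± 0.05 and did not pass the test (adjusted p = 0.107). For Gab2 the signals were 886.6, 825.4, 873.9 and 878.8 in norm cell and 928.6, 923.9, 1041 and 923.1 in oxi cell. Here too every oxi cell value was above every norm cell value, at a log2 difference of 0.14 ± 0.06 (adjusted p = 0.170). Its 2 other probe sets above background gave 0.25 ± 0.11 (1439786_at) and −0.25 ± 0.20 (1420785_at), and neither passed the test. Lcp2 had mean signals of 1359 ± 114 (norm cell) and 1372 ± 110 (oxi cell; SD, n = 4), and the 95% interval of its log2 difference was −0.13 to 0.15. Among the probe sets that stand for the genes, that of Lcp2 had the log2 difference of smallest size, at 0.01 ± 0.06. The second Lcp2 probe set (1418642_at) gave 0.10 ± 0.08 (adjusted p = 0.517).

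Among the lipid enzymes, Plcg2 had signals of 512.7, 514.2, 507.4 and 530.9 in norm cell. They were 641.4, 631.8, 682.6 and 586.4 in oxi cell, with no overlap. The log2 difference was 0.30 ± 0.06 (adjusted p = 0.0115), a 1.23-fold rise seen in 4 of 4 pairs. Plcg1, the other form of the same enzyme, had a mean signal of 235.5 ± 15.8 in norm cell and 219.7 ± 37.1 in oxi cell. Its groups overlapped, and its log2 difference of −0.11 ± 0.10 had a 95% interval of −0.34 to 0.11. Whether the 2 forms differed in their change was not tested. Inpp5d, which acts against phosphoinositide 3-kinase, had a mean signal of 987.7 ± 37.4 in norm cell and 929.9 ± 53.4 in oxi cell. Its log2 difference of −0.09 ± 0.05 had an adjusted p of 0.366. Its second probe set (1424195_a_at) gave −0.17 ± 0.08 (adjusted p = 0.247).

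These small differences depend on how the arrays were brought to one scale. Quantile normalization moved the median of all probe sets from −0.15 to 0.00, and scaling to the spiked bacterial control RNAs moved it to 0.15. On the spiked scale all 9 log2 differences were above 0, with 6443 probe sets called higher and 430 lower, against 1941 and 2483 on the deposited scale. There Plcg2, Lat, Gab2 and Lcp2 were called higher at 0.59, 0.44, 0.43 and 0.31, and Lat2 stood at 0.04 with an adjusted p of 0.824. Relative to the median of all probe sets, Plcg2 lay 0.44 above it on the deposited scale and 0.26 above it after quantile normalization. Lat2 lay at −0.11 relative to that median on the deposited and on the spiked scale, and at −0.30 after quantile normalization. Plcg2 was called higher under 9 of its 11 alternatives, and the fall of Lat2 was called under 5 of 11. Plcg2 lost its call without replicate 2 and under the study's paired test after adjustment. Lat2 lost its call without replicate 1, 3 or 4, with 32 added to the signal, on the spiked scale and under the adjusted paired test. Btk was called lower under 5 of its 11 alternatives, among them quantile normalization (−0.24, adjusted p = 0.031) and the fit without the replicate block (adjusted p = 0.0401).

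**Figure D2:**
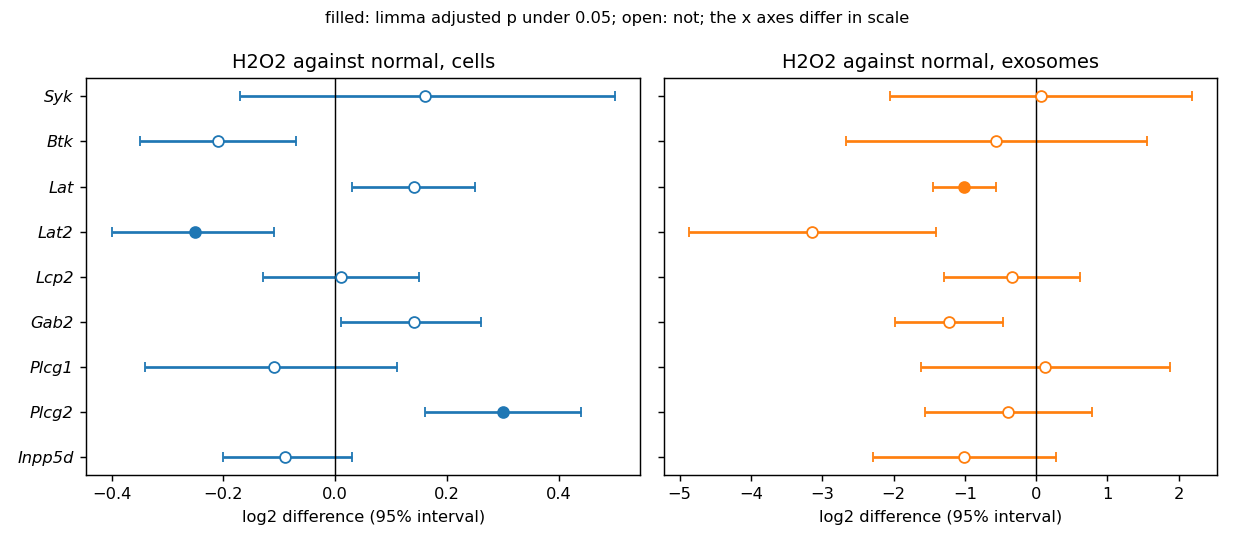
Log2 difference between H2O2 and normal conditions for the 9 genes, in cells (left) and in exosomes (right), each with its 95% interval and with filled points for a limma adjusted p under the threshold. The x axes differ: the cell estimates run from −0.25 to 0.30 and the exosome estimates from −3.14 to 0.13, and Lat, Lat2 and Plcg2 hold the 3 filled points.

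In the exosomes, the question was whether H2O2 changed the RNAs that the vesicles carried. Lat fell, and no other of the 9 genes passed the test. Of all probe sets, 1.70% were called lower and 0.0311% higher. The exosome groups also differed as whole arrays. In norm exo a mean of 3824 probe sets lay above background (range 3183 to 4993), whereas in oxi exo the mean was 2555 (range 1885 to 3735). The mean background level was 249.5 for norm exo and 286 for oxi exo. The part of this array-wide difference in the fall of Lat, or of the pathway genes given below, was not tested. Lat had signals of 1064, 1204, 981.4 and 944.3 in norm exo. They were 463.5, 677.2, 557.9 and 410.1 in oxi exo, each of them above the background of its array, and the groups did not overlap. The log2 difference was −1.01 ± 0.21 (adjusted p = 0.0147, lower in 4 of 4 pairs), a 2.02-fold lower signal. After quantile normalization the difference was −0.43 with an adjusted p of 0.518, and with scaling to the spiked controls it was −0.98 with an adjusted p of 0.0792. Without replicate 1, 2 or 4 the adjusted p was above the threshold, and without replicate 3 the call was kept.

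The other adaptors lay at the edge of what the exosome arrays could measure. Gab2 had signals of 328.2, 276.5, 196.6 and 282.7 in norm exo, of which 3 were above background. In oxi exo they were 114.1, 145.1, 97.01 and 106.4, none of them above background and all under the norm exo values. The log2 difference was −1.22 ± 0.36 and did not pass the test (adjusted p = 0.141). Of its other probe sets, 1439786_at was below background on all exosome arrays and gave −0.56 ± 0.59 (adjusted p = 0.817). The third (1420785_at), above background on 1 array of each exosome group, gave −1.09 ± 0.59 (adjusted p = 0.587). Lat2 had signals of 238.8, 237.8, 137.5 and 269.5 in norm exo, of which 2 were above background. The oxi exo values of 10.06, 135.3, 53.56 and 4.822 were all below background and below every norm exo value. Their log2 difference of −3.14 had an SE of 0.82 and an adjusted p of 0.0745. Its size is that of signals under the background level, where signals have no order that can be read as an amount.

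For Syk, Btk, Lcp2, Plcg1 and Inpp5d no exosome array showed a signal above background in the probe set that stands for the gene. Btk had signals of 179.6, 40.87, 23.99 and 20.91 in norm exo and 29.27, 132.7, 24.25 and 8.285 in oxi exo. These values overlapped and spread over more than their difference, with a log2 difference of −0.56 ± 1.00. Plcg2 was above background on 1 exosome array, the second of oxi exo at 468.5, while the other 3 oxi exo arrays had 33.51, 127.4 and 141.1. The SE of the exosome differences ran from 0.21 for Lat to 1.00 for Syk and Btk, and that of the cell differences from 0.05 to 0.15. A difference in the exosomes was thus not detectable for most of these genes at this signal. Among the further probe sets, the second of Inpp5d (1424195_a_at) gave a signal above background on the most exosome arrays. It had 215.1, 205.7, 305.6 and 216.9 in norm exo, of which 1 was above background, and 482.1, 415.4, 356.6 and 244.7 in oxi exo, of which 3 were. The log2 difference was 0.64 ± 0.30 and did not pass the test (adjusted p = 0.503), whereas the first Inpp5d probe set gave −1.01 ± 0.61, so that the 2 probe sets pointed in opposite directions.

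The change in exosomes was then set against the change in cells in a single test of the difference. Lat and Gab2 differed, each with the lower change in exosomes. Of all probe sets, 1.47% were called lower and 0.0933% higher in this test. For Lat the change in exosomes was 1.15 ± 0.21 lower on the log2 scale than the change in cells (log2 difference −1.15, adjusted p = 0.0189). For Gab2 the difference was −1.36 ± 0.27 (adjusted p = 0.0284), with the oxi exo signals below background. Both had the same sign in 4 of 4 pairs. After quantile normalization Lat gave −0.51 (adjusted p = 0.432) and Gab2 gave −2.50 (adjusted p = 0.0301). With signals floored at the background level Gab2 gave −0.14 (adjusted p = 0.278). With any 1 replicate left out neither call was kept, apart from Lat without replicate 3, while the differences stayed between −1.22 and −1.09 for Lat and between −1.45 and −1.28 for Gab2. With so few differences this test called 0 of all probe sets without replicate 1 and 6 without replicate 2, so that the calls lost there say little about these genes. It called 561 without replicate 3 and 202 without replicate 4, against 704 with all replicates. Gab2 thus also lost its call without replicate 3, where most of the calls over all probe sets remained in number. Mast cell markers as a list had a lower summed signal in oxi exo than in norm exo, as given above, and their part in the fall of Lat was not tested.

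Exosomes and cells were also compared within each condition. On the deposited scale the fit called 8 of the 9 genes lower in exosomes in both conditions, and Syk passed the test in neither. Over all probe sets 57.7% were called higher and 19.0% lower in norm exo, and 60.8% and 19.4% in oxi exo. The counts of the genes cannot be read against these shares, because each gene stands for its probe set of highest cell signal, a choice that favours a lower exosome value. Over all 20 probe sets of the genes, 8 were called lower and 6 higher in norm exo, and 8 lower and 7 higher in oxi exo. Plcg1 is among the 8 genes, but its mean cell signals of 235.5 (norm cell) and 219.7 (oxi cell) lay under the mean exosome background levels of 249.5 and 286. Its exosome signals were all below background, so that its direction could not be read. Taken over all probe sets, the median log2 difference was 2.23 for norm exo and 2.67 for oxi exo, and the spiked control RNAs were brighter there by 17.3 and 20.8 times. Both comparisons use separate arrays, but each shares its arrays with the comparisons above.

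Lat was measured on all arrays of these comparisons. Its log2 difference was −0.45 ± 0.17 in norm exo (adjusted p = 0.0293), where the exosome signals ran from 944.3 to 1204 and the cell signals from 1378 to 1464. In oxi exo it was −1.60 ± 0.23 (adjusted p = 0.000222), with signals from 410.1 to 677.2 in exosomes and from 1549 to 1605 in cells. The direction for Lat turned with quantile normalization, to 0.98 in norm exo (adjusted p = 0.000181) and 0.34 in oxi exo (adjusted p = 0.263). Scaling to the spiked controls gave −4.56 and −5.98.

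For genes below background on every exosome array of a group, a lower bound was taken from the background level of those arrays. Against the cells of the same condition, Lcp2 was lower in norm exo by at least 5.45-fold and in oxi exo by at least 4.80-fold. Inpp5d was at least 3.97-fold and at least 3.26-fold lower, and Btk at least 2.40-fold and at least 1.82-fold lower. The bound for Plcg2 in norm exo was at least 2.08-fold. In oxi exo, Gab2 was at least 3.34-fold and Lat2 at least 2.04-fold lower. These bounds hold for the probe set that stands for each gene and on the deposited scale. On that scale the spiked control RNAs were 17.3 times brighter in norm exo and 20.8 times brighter in oxi exo than in the cells. The second Inpp5d probe set (1424195_a_at) gave −0.07 ± 0.24 in norm exo (adjusted p = 0.789) and 0.74 ± 0.27 in oxi exo (adjusted p = 0.0311). The second Lcp2 probe set (1418642_at) gave −0.16 ± 0.29 and −0.11 ± 0.30, but its cell signals lay under the exosome background level. For Syk and Plcg1 the mean cell signals lay under the mean exosome background level, so that no bound could be given. The adjusted p of each bounded gene was 0.000263 or less in norm exo and 0.000311 or less in oxi exo, and the sizes fitted to signals below background have no readable meaning. In oxi exo Plcg2 was measured on 1 of 4 exosome arrays, at −2.29 ± 0.51 (adjusted p = 0.00271). Syk stood at −0.42 in norm exo (95% interval −1.74 to 0.90) and at −0.51 in oxi exo (−1.84 to 0.82). On the spiked scale Syk was also called lower, at −4.53 and −4.89, and so were all 9 genes. In norm exo Gab2 was measured on 3 of 4 exosome arrays and Lat2 on 2 of 4, at −1.70 ± 0.21 and −1.69 ± 0.24. Quantile normalization left Gab2 at −0.69 in norm exo with an adjusted p of 0.0592.

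Some of the other probe sets went the other way. Of the 20 probe sets, 6 were called higher in norm exo and 7 in oxi exo on the deposited scale. None of them was above background on all arrays of an exosome group, and with scaling to the spiked controls none was called higher. The second Inpp5d probe set is the one of these with a signal above background on most oxi exo arrays, where it was 0.74 ± 0.27 higher than in the cells (adjusted p = 0.0311), and the third of Gab2 (1420785_at) was called higher at 2.29 and 1.46 with 1 of 4 arrays above background in each exosome group.

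**Figure D3:**
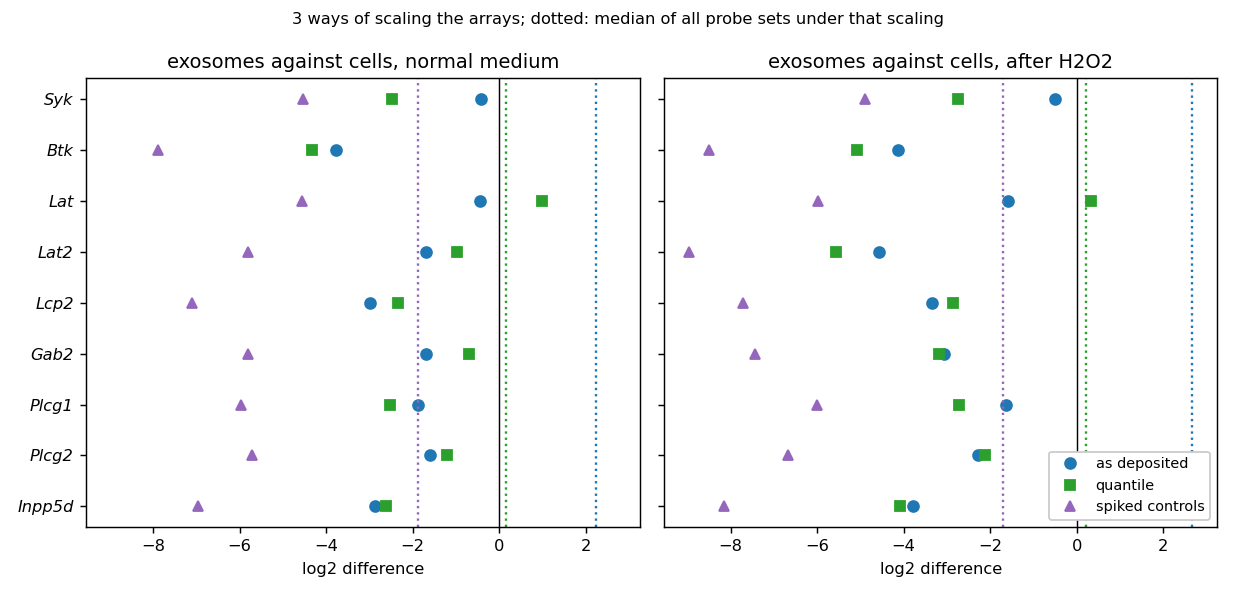
Log2 difference between exosomes and cells for the 9 genes, in normal conditions (left) and after H2O2 (right), on the deposited scale (circles), after quantile normalization (squares) and scaled to the spiked controls (triangles), with the median of all probe sets for each scaling as a dotted line. Lat is the gene whose sign turns, to 0.98 and 0.34 after quantile normalization.

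The gene whose pattern over the 16 arrays was most like that of Syk, among 16904 probe sets with 1 symbol above background in norm cell, was Meiob (Pearson r = 0.928), followed by Pip5k1b and Wdr60 (0.927 each). Over the 8 cell arrays alone the same r was 0.138, 0.104 and 0.262. The likeness over all arrays was thus not seen within the cell arrays. Syk was below background on the exosome arrays, and r over those arrays alone was not computed.

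The rest of the pathway was taken as a list of 72 genes, of which 61 had a probe set with a single symbol. In the cells 6 of the 61 were called higher and 12 lower, at a median log2 difference of −0.06, against the 9.83% higher and 12.2% lower among all probe sets above background in the cells. All 3 receptor chains fell: the IgE-binding chain Fcer1a by 0.30, the beta chain Ms4a2 by 0.25 and the shared gamma chain Fcer1g by 0.25 on the log2 scale, with limma adjusted p of 0.00487, 0.0148 and 0.0212. On the spiked scale they stood at 0.00, 0.05 and 0.04. After quantile normalization Fcer1a stood at −0.06 (adjusted p = 0.505), Ms4a2 at −0.19 (adjusted p = 0.0249) and Fcer1g at −0.26 (adjusted p = 0.00708). Of the 13 inhibitors 4 fell and none rose. The inhibitory receptors Pirb and Cd300a gave −0.60 ± 0.10 and −0.53 ± 0.06, with mean signals going from 118.7 ± 6.10 to 79.18 ± 12.2 and from 567.6 ± 18.7 to 394.2 ± 26.1 (SD, n = 4). The stress kinase Mapk8 had the largest fall among the genes of the list that passed the test, at −0.62 ± 0.13 (adjusted p = 0.0089), from 128.5 ± 13.4 to 83.77 ± 13.1. On the spiked scale none of these 3 kept its call. Of the genes that rose, Map2k2, a kinase of the MAPK cascade, gave 0.36 ± 0.07, Fyn, the Src-family kinase that acts with Gab2, 0.28 ± 0.07, and the kinase Akt1, which acts after phosphoinositide 3-kinase, 0.25 ± 0.06. The mean signal of Fyn went from 631.8 ± 31.0 to 770.7 ± 57.2. After quantile normalization Fyn stood at 0.24 (limma adjusted p = 0.0535), while Map2k2 and Akt1 kept their calls. Of the 13 adaptors and exchange factors 1 rose and 1 fell, of the 10 genes of phosphoinositide 3-kinase and its lipids 2 rose, and of the 12 of calcium and protein kinase C 1 rose and 3 fell.

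**Figure D4:**
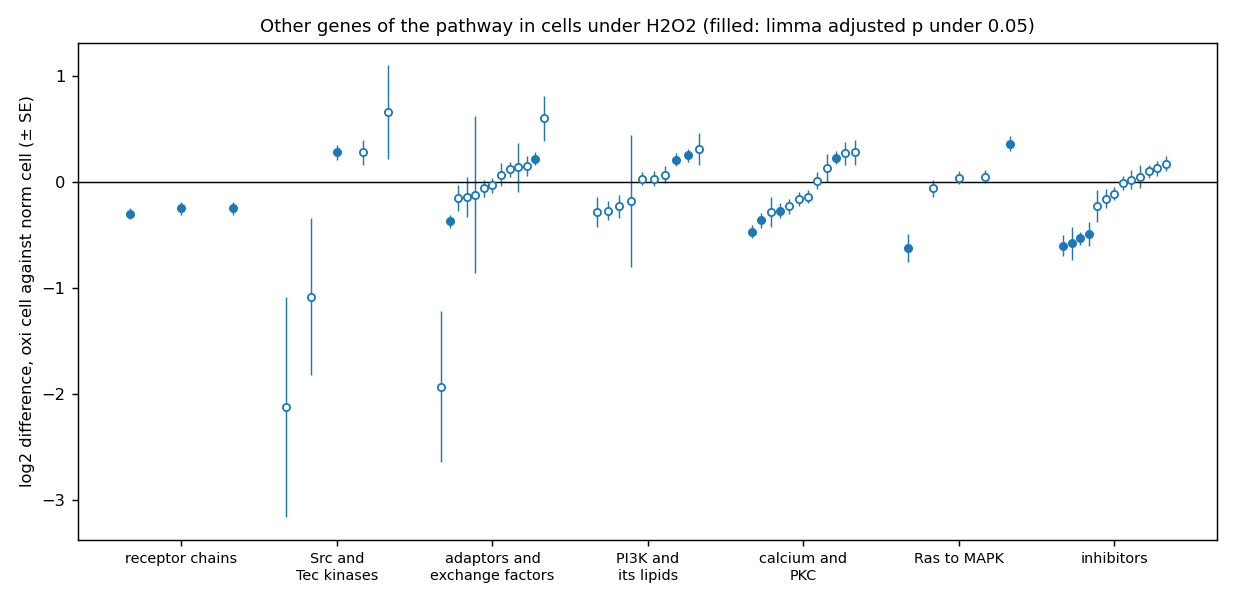
Log2 difference ± SE between oxi cell and norm cell for the 61 measured genes of the wider pathway, in 7 groups by role, with filled points for a limma adjusted p under the threshold. The 3 receptor chains and 4 of the inhibitors lie below 0 with filled points, and the open points far from 0 have wide errors.

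In the exosomes 6 of the 61 pathway genes were called lower under H2O2 and none higher (limma), where 1.70% of all probe sets were called lower and 0.0311% higher. Those shares include the many probe sets below background on the exosome arrays, where 1885 to 4993 of 45037 were above it. The share among measured probe sets was not computed, so that the count cannot be read as an excess. Of the receptor chains, Fcer1a went from a mean signal of 1719 ± 439 to 474.9 ± 189 and Ms4a2 from 941.6 ± 284 to 243.8 ± 74.2 (SD, n = 4). Their log2 differences were −1.91 ± 0.22 and −1.95 ± 0.28, with adjusted p of 0.000265 and 0.000677. Fcer1g, below background on all exosome arrays, gave −0.77 ± 0.46 (adjusted p = 0.639). The p38 kinase Mapk14 went from 599.7 ± 131 to 152.7 ± 100, at −2.31 ± 0.45 (adjusted p = 0.00944). Mapk14 and Ms4a2 were each above background on 4 norm exo arrays but on 1 oxi exo array, so that the size of their falls could not be read. The receptor chains Fcer1a and Ms4a2 are also mast cell markers of the list above. In the test of the difference of changes, 5 of the 61 were called lower and none higher. With the same limit, 1.47% of all probe sets were called lower there and 0.0933% higher. Of the pathway genes called, Map2k2 and Ppp3ca are given below. Ms4a2, also called, gave −1.70 ± 0.31, with 4 norm exo arrays and 1 oxi exo array above background. Map2k2 and Ppp3ca, a catalytic subunit of calcineurin, were also called, with adjusted p of 0.00737 and 0.0193, but Map2k2 was below background on all oxi exo arrays and Ppp3ca on all exosome arrays, so that the size of their difference could not be read.

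Between exosomes and cells the fit called 38 of the 61 pathway genes lower in each condition on the deposited scale, and 9 higher in norm exo and 10 in oxi exo. Over all probe sets the shares were 19.0% lower and 57.7% higher in norm exo and 19.4% and 60.8% in oxi exo, and here too a gene stood for its probe set of highest cell signal. Of the 38 called lower, 27 in norm exo and 34 in oxi exo were below background on every exosome array of the group, and a bound over 1 could be given for 16 and 21 of them. Among the receptor chains, Fcer1a and Ms4a2 were measured on all norm exo arrays and were lower there than in the cells at −2.70 ± 0.19 and −2.41 ± 0.19. Fcer1g was lower by at least 13.4-fold in norm exo and at least 9.83-fold in oxi exo. The phosphatase Ptprc was lower by at least 4.19-fold in norm exo, and the phosphatase Ptpn6 by at least 1.27-fold in norm exo and at least 1.24-fold in oxi exo. The exchange factor Vav1 was called lower in oxi exo, but its mean cell signal lay under the mean exosome background level. Called higher in norm exo were the protein kinase C form Prkce, the calcium channel Orai1 and the adaptor Dok1, and in oxi exo Prkce, Src and the phosphoinositide 3-kinase subunit Pik3r1. None of these 5 genes was above background on all arrays of an exosome group, so that no size is given, and on the spiked scale each was lower, at −3.24 to −2.36.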

How the data were processed

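RNA of exosomes and of MC/9 cells was measured on 16 Affymetrix mouse arrays. The deposited table holds 1 signal intensity per probe set and array, not log-transformed, from MAS5.0 as the authors state and GCOS 1.2 per the labels. Averaged over the arrays, the mean signal was 100 once 2% of the probe sets of each array were trimmed at either end. The part of this scaling in the high exosome background was not tested. The study's text names the array as Mouse Genome 430A 2.0, and the file holds 45101 probe sets. The number of arrays limits the precision. Gene names came from a platform annotation of 2016: of the 45037 probe sets left without 64 controls, 34945 had 1 symbol, 932 several and 9160 none.

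The log2 signals of the groups compared were analysed in R 4.3.3 by limma 3.58.1 (lmFit and eBayes, trend on). Replicate numbers entered as a block, after the paired test of the study's methods. Adjusted p-values are limma's, with Benjamini-Hochberg correction across the 45037 probe sets and a threshold of 0.05. The change in exosomes was compared with that in cells through the 8 differences within numbers. The fits were tested on simulated data. The members, gene lists and tests were chosen with earlier results of these data known. Each member with a probe set was named by that of highest mean cell signal and by its others above background in the cells. The remaining probe sets of the members entered the counts and were not all described. Of the pathway list, up to 3 genes that rose and 3 that fell most in a comparison were named. These were taken among those past the threshold, alike in 4 of 4 pairs and above background on all arrays of 1 group. The genes most like Syk were the 3 of highest Pearson r. Alternatives were the fit without block, quantile normalization, scaling to 9 spiked control probe sets, probe sets above the median signal, log2 of the signal plus 32, signals floored at background, another choice of probe set, leaving out each replicate, and the methods' paired test on linear signals.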

Additional observations from a re-analysis of the deposited data

Results flagged for a closer look

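For Lat and Gab2 the change under H2O2 differed between exosomes and cells, by −1.15 and −1.36 on the log2 scale in limma's test of that difference. Gab2 was below background on all oxi exo arrays, and with signals floored at background it gave −0.14 (adjusted p = 0.278). Lat gave −0.51 (adjusted p = 0.432) after quantile normalization. In 5 of the 36 groups of 4 arrays examined (9 genes in 4 groups), the farthest array stood apart from the others by Dixon's criterion, and chance gives about 1 in 20. These were Btk on the first norm exo array at 179.6 and on the second oxi exo array at 132.7, both below background, Lcp2 on the fourth oxi cell array at 1209, Gab2 on the third oxi cell array at 1041, and Inpp5d on the fourth norm cell array at 932.2.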

How the results depend on the processing

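Of the 475 values of single genes under an alternative, 412 kept a call and its direction, or stayed uncalled with a small move. A small move was one under the SE of the main fit times the square root of 2. Of the rest, 14 gained and 28 lost a call, 8 stayed uncalled but moved further, and 13 turned sign where a call was involved. The causes were not tested. Genes called higher and lower among the 9 in cells (1 and 1) were 1 and 2 without the block, 1 and 2 with quantile normalization, 4 and 0 on the spiked scale, 1 and 2 above the median signal, 1 and 0 with 32 added, 2 and 2 with floored signals, 0 and 0 by the methods' paired test adjusted and 2 and 3 unadjusted, and 0 to 1 and 0 to 1 without 1 replicate. In exosomes (0 and 1) the number lower was 0 with quantile normalization, on the spiked scale and by the adjusted paired test, 2 with 32 added, 3 by the unadjusted paired test and 0 to 1 without 1 replicate, and floored signals gave 1 higher, Plcg2 at 0.43. Between exosomes and cells, 1 gene was higher in norm exo with quantile normalization (Lat, 0.98, and 0.34 in oxi exo), and floored signals gave 1 higher in norm exo and 2 in oxi exo, Syk at 2.38 and 2.41 and Plcg1 at 0.08 and 0.39. Another probe set for Syk, below background everywhere, gave 1 higher in each condition, at 4.04 and 4.75. In the difference of changes (0 and 2), quantile normalization left 1 lower, floored signals gave 3 higher and 1 lower (Btk 0.40, Lat2 0.38, Inpp5d 0.29), and leaving out 1 replicate gave 0 to 1. Lat2 in cells stood at 0.04 on the spiked scale. Flooring left out probe sets at background on every array of a fit. The probe sets that stand for Syk, Plcg1, Btk and Inpp5d were below background on every exosome array, and that of Lat2 on every oxi exo array. Their floored values there are background levels, so that these calls with floored signals cannot be read as amounts of RNA. Plcg2 was above background on 1 exosome array.

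The labels number the samples of each group 1 to 4. Deviations of equally numbered samples from their group means correlated between −0.016 and 0.022, so that no batch that follows the number was visible. A batch that follows the groups could not be seen this way. The pairs named above are pairs by number, and groups that do not overlap have the same sign in all of them. Without the replicate block 4850 probe sets were called in cells (4424 with it) and 739 in exosomes (778 with it), and of the 9 genes Btk was also called lower in cells. The difference of changes was not fitted without the pairing. Over all probe sets, quantile normalization split the calls in exosomes into 115 higher and 276 lower against 14 and 764, and in norm exo against cells into 8352 and 9974 against 25977 and 8538, and on the spiked scale into 1232 and 23105. The methods' paired test called 5 probe sets in cells and 0 in exosomes after adjustment, and 7885 and 3680 at an unadjusted p under 0.05. The number of arrays and the high exosome background limit what can be measured.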
